A study of Mus musculus with 6 samples.

Results

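The 8 genes described here are Zfp345, Timm21, Tspear, Nupr1l, Rbmxl2, Plekhh3, Scml4 and Neurog3, out of 19938 genes measured in RW4 mouse embryonic stem cells. They were taken by symbol from a list of genes chosen with their Shld1 and untreated values in these same arrays known, and all lie among the 20 genes with the largest moderated statistic (the difference over its error). Those differences are therefore described and not tested. Each gene was represented by 1 probe set. Gene expression was measured in 3 groups of 2 arrays with biotin-labelled total RNA treated with DNase. The first group was given 1 µM Shld1, a small ligand that protects fusions of an unstable FKBP domain from degradation, and the labels tie it to an FKBP induction system. The second group was given 1 µM 4-hydroxytamoxifen (4OHT), an estrogen receptor ligand, tied by the labels to an ERT2 system. The third group was untreated and is labelled WT. All cells grew on gelatin in serum with leukemia inhibitory factor, which holds them undifferentiated. The labels do not state whether the cells carried a fusion protein, how long the treatments lasted, or whether the duplicate arrays came from separate cultures. P-values therefore measure only the spread between these arrays, and that spread may be technical.

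The 8 genes belong to different systems. Zfp345 encodes a zinc finger protein, a large class of DNA-binding proteins. Timm21 encodes a subunit of the TIM23 complex, which moves proteins across the inner mitochondrial membrane. Tspear encodes a secreted protein with EPTP repeats, known from hair follicles and teeth. Nupr1l, also called Nupr2, is the paralogue of the stress gene Nupr1, and its human counterpart has been described as induced by p53. Rbmxl2 is an intronless relative of Rbmx whose splicing protein is made in male germ cells. Plekhh3 belongs to a family with MyTH4 and FERM domains, and Scml4 is related to polycomb group genes. Neurog3 encodes the basic helix-loop-helix factor that starts endocrine differentiation in the pancreas and that activates Neurod1 there. None is known as a defining gene of embryonic stem cells.

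The cells had the markers of their label. All 8 stem cell markers, Pou5f1, Sox2 and Nanog among them, lay above the low-signal level, with group means from 7.20 for Klf4 with Shld1 to 12.10 for Dppa5a with Shld1, on the log2 scale used throughout. That level, 3.72, is the 95th percentile of the means of 1016 olfactory receptor genes, a class with no known use in stem cells. Summed up as list means, stem cell markers were at 10.10 and 9.97 on the Shld1 arrays, 10.09 and 10.17 with 4OHT, and 10.07 and 10.12 untreated. Of the markers of other cells, 4 of 6 for fibroblasts, 5 of 6 for endoderm, 4 of 5 for primitive streak and mesoderm, 3 of 6 for trophoblast, 3 of 4 for neural cells and 5 of 6 for germ cells and testis lay above the level. Of all 19938 genes, 12821 lay above it, so these counts do not by themselves point to other cells. Lum and Dcn of fibroblasts, Afp of endoderm, Mesp1 of mesoderm, Cdx2, Gata3 and Elf5 of trophoblast, Nes of neural cells and Tnp1 of spermatids lay below the level. The mean of the germ cell and testis list was 5.19 and 5.13 with Shld1, 4.96 and 4.88 with 4OHT, and 5.17 and 5.23 untreated. The part of such cells in the results below was not tested, and fewer cells of a type cannot be told apart from less RNA per cell. Shld1 replicate 2 had the narrowest spread of signals (SD 2.24, against 2.29 to 2.35 on the others), and its olfactory receptor median was the highest, at 2.57, against 2.31 to 2.40.

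Promoter sequences were taken from RefSeq on GRCm38.p6, and windows of 5 of the 8 genes were used (Zfp345, Nupr1l, Rbmxl2, Plekhh3 and Neurog3). A chromosome was left out when these windows were taken, so a gene missing here may still have a window. The 250 bases before the start are shown 5′ to 3′ for Zfp345 and Nupr1l, the genes with the largest statistics in each direction, and for Neurog3, whose 4OHT arrays stood farthest from its Shld1 arrays among the genes higher with Shld1. The windows are chr2:150485064-150485313 on the minus strand, chr5:129908290-129908539 on the plus strand and chr10:62132840-62133089 on the plus strand. Capitals mark CCAAT on either strand (ATTGG on the strand shown).
Zfp345: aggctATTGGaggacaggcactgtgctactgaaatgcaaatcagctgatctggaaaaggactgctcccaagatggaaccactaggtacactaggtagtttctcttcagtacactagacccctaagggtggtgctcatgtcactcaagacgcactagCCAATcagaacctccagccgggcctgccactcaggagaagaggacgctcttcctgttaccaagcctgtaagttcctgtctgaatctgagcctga
Nupr1l: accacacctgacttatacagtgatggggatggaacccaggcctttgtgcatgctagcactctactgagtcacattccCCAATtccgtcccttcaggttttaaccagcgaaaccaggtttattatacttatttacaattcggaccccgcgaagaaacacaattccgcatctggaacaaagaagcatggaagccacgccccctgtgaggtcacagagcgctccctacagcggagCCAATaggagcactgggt
Neurog3: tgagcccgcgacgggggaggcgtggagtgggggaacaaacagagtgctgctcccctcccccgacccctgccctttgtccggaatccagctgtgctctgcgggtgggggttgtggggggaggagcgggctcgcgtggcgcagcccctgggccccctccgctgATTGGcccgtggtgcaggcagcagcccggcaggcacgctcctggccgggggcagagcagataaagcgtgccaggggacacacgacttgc

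Short promoter motifs were counted in the same windows. CCAAT was found on either strand in all 6 windows used (Plekhh3 has 2 that overlap), and in 33.8% of all 32851 windows in the table. No chromosome was left out of the latter. TATAAA was in 0 of the 6 windows on either strand, with 12.4% over all windows. GGGCGG was in 2 of the 6, with 32.7% over all windows, and the E-box CANNTG was in all 6, with 66.2% over all. GC content ran from 50.8% for Nupr1l to 71.2% for Neurog3, around a median of 52.4% over all windows. A match is a run of letters only, and these data do not bear on any factor binding there.

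Zfp345, Timm21 and Tspear were lower with Shld1. Zfp345 read 2.80 and 2.78 on the Shld1 arrays, 3.65 and 4.15 on the 4OHT arrays, and 4.23 and 3.91 on the untreated arrays. Both Shld1 arrays were below all others, while the 4OHT and untreated arrays overlapped. The Shld1 mean was 2.79 ± 0.01 and the untreated mean 4.07 ± 0.23 (SD, n = 2 each), a difference of -1.28 (SE 0.19), or 2.43-fold lower with Shld1. With Shld1 the gene sat inside the range of the low-signal genes: 79.2% and 63.8% of olfactory receptor genes read lower on those arrays, against 98.1% and 96.4% on the untreated arrays. The fold is therefore limited by background.

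Timm21 stood well clear of that background in every group. Its arrays read 5.65 and 5.72 with Shld1, 6.03 and 6.24 with 4OHT, and 6.21 and 6.59 untreated. The Shld1 arrays were the lowest of the 6 and close to each other, whereas the untreated arrays were 0.37 apart, a gap larger than that of 91.4% of genes. The difference was -0.71 (SE 0.17). Tspear read 3.41 and 3.43 with Shld1, 3.96 and 3.88 with 4OHT, and 4.11 and 4.02 untreated. Its groups did not overlap, and its Shld1 mean (3.42 ± 0.01) was under the low-signal level while the others were just over it. The difference from untreated was -0.64 (SE 0.14), and its size is limited by background: 92.5% and 88.0% of olfactory receptor genes read lower on the Shld1 arrays.

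Nupr1l, Rbmxl2, Plekhh3, Scml4 and Neurog3 were higher with Shld1. Nupr1l was at 6.15 and 6.29 with Shld1, at 5.63 and 5.58 with 4OHT, and at 5.40 and 5.15 untreated. The 3 groups formed separate steps, with Shld1 on top. Its Shld1 mean of 6.22 ± 0.10 was 1.93-fold that of untreated cells (5.27 ± 0.17), a difference of 0.95 (SE 0.15). Rbmxl2 was at 6.05 and 6.17 with Shld1, at 5.65 and 5.70 with 4OHT, and at 5.42 and 5.41 untreated. These groups were also separate steps in the same order, and the untreated duplicates differed by only 0.008. The difference between Shld1 and untreated was 0.69 (SE 0.14). Nupr1l and Rbmxl2 lay above the low-signal level on all 6 arrays, by at least 1.55 in every group mean.

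Plekhh3, at 4.88 and 4.86 with Shld1, 4.43 and 4.16 with 4OHT, and 4.25 and 4.17 untreated, had Shld1 arrays that were almost the same and 4OHT arrays that enclosed the untreated ones. Its difference from untreated was 0.66 (SE 0.15). Scml4 gave 4.12 and 4.35 with Shld1, 3.87 and 3.90 with 4OHT, and 3.52 and 3.66 untreated. All 3 groups were apart, in the order Shld1, 4OHT, untreated, but the untreated mean (3.59 ± 0.10) was below the low-signal level, so the difference of 0.65 (SE 0.15) is limited by background. Neurog3 gave 4.72 and 4.83 with Shld1, 3.94 and 3.93 with 4OHT, and 4.24 and 4.12 untreated. It was the 1 gene of the 8 in which the 4OHT mean was not between the other groups but lowest. It exceeded untreated by 0.60 (SE 0.14) with Shld1.

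**Figure D1:**
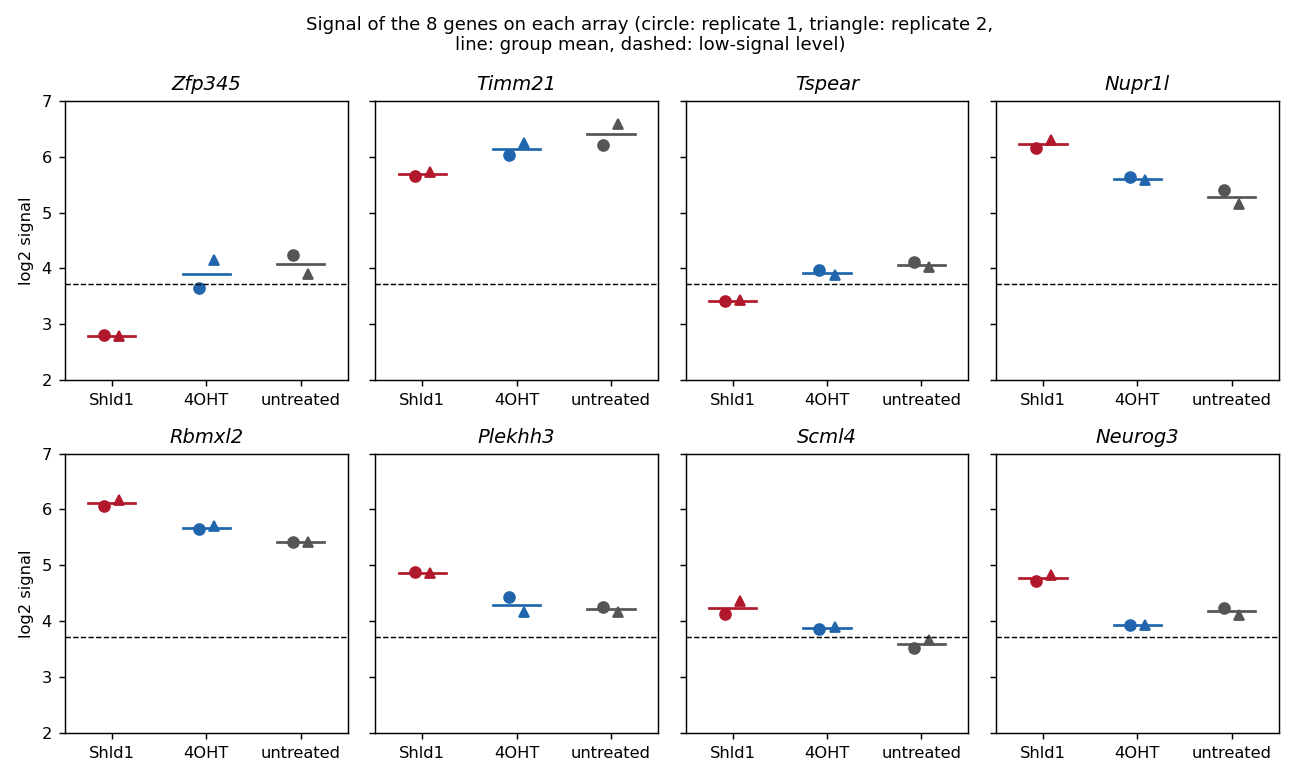
Log2 signal of each gene on each array (y axis) by group (x axis), with Shld1, 4OHT and untreated from left to right; circles are replicate 1, triangles replicate 2, lines group means (n = 2), and the dashed line is the low-signal level of 3.72. Both Shld1 arrays lie outside the range of the 4 other arrays in every panel. Zfp345 and Tspear with Shld1, Scml4 untreated and Zfp345 on 4OHT replicate 1 lie under the dashed line.

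The same separation was found for many genes of the table. The Shld1 and untreated arrays did not overlap for 8 of the 8 and for 32.5% of all 19938 genes. For the 8 this came with the choice of genes and is no finding. Both Shld1 arrays were outside the range of the 4 other arrays for the 8 and for 12.7% of all genes (2529). By the size of their moderated statistic in Shld1 against untreated, the 8 genes ranked from 1 for Zfp345 and 2 for Nupr1l to 19 for Neurog3 and 20 for Timm21. No gene passed: the count of genes with a limma adjusted p under 0.05 was 0 (0%). Without adjustment, p was under 0.05 for 866 genes (4.34%). In the same order of groups, 6 of the 8 genes had a Shld1 mean above the low-signal level, 8 a 4OHT mean and 7 an untreated mean. By the mean over all 6 arrays, 12821 of the 19938 genes lay above that level.

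The Shld1 duplicates agreed closely for most of these genes. Their gap ran from 0.012 for Tspear, 0.014 for Plekhh3 and 0.020 for Zfp345 to 0.230 for Scml4, and 7 of 8 were under the median gap of all genes, 0.195. The gaps of Tspear, Plekhh3 and Zfp345 were larger than those of only 3.3%, 3.8% and 5.6% of genes, and than 3.1%, 3.9% and 5.1% of the 1000 genes nearest to each in mean signal. A small gap raises the statistic by which the genes were chosen, so this closeness is part of the choice. All 6 arrays entered the estimate of spread behind that statistic, so this holds for the other groups too. On the 4OHT arrays the gap was under the median of 0.166 in 5 of 8 genes and reached 0.494 for Zfp345. On the untreated arrays it was under the median of 0.124 in 4 of 8 genes and reached 0.374 for Timm21. Over all genes, the Shld1 duplicates were the farthest apart of the 3 pairs.

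**Figure D2:**
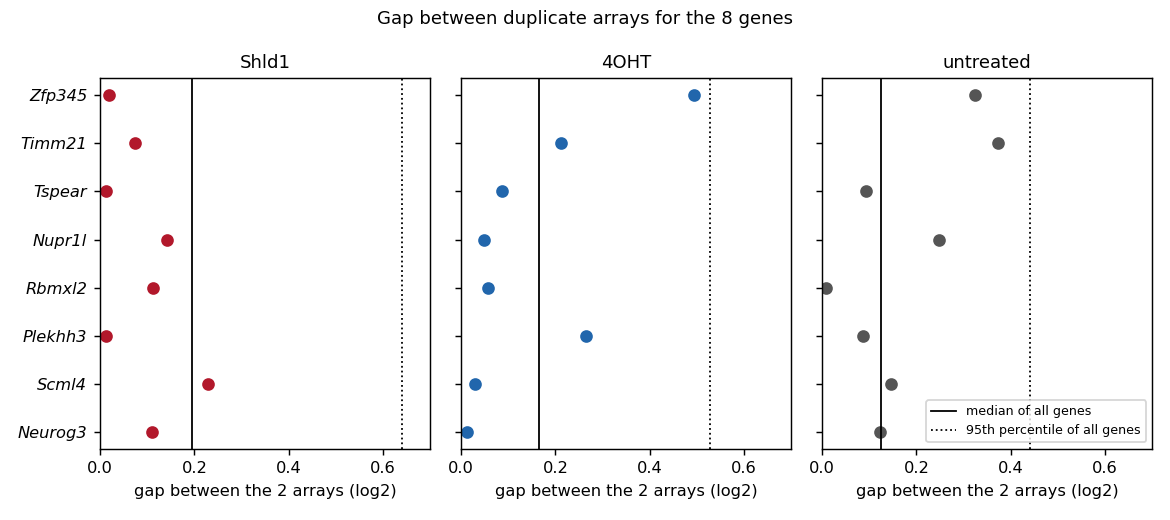
Absolute log2 difference between the 2 arrays of a group (x axis) for each gene (y axis), with a panel each for Shld1, 4OHT and untreated; the solid line is the median and the dotted line the 95th percentile over all 19938 genes. In the Shld1 panel 7 of 8 genes lie left of the median, against 5 with 4OHT and 4 untreated.

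The 4OHT arrays were then set against the untreated arrays. The untreated arrays had taken part in the choice of the genes, so these differences are a description as well, with no test for the 8. Over the table limma called 0 genes (0%), and 4.99% had an unadjusted p under 0.05. Nupr1l had a difference of 0.33 (SE 0.15), without overlap of the groups, and of 0.21 without untreated replicate 2. Scml4 and Rbmxl2 differed by 0.29 and 0.26 without overlap, and Neurog3 and Tspear by -0.24 and -0.15 (SE 0.14 each) without overlap, that of Tspear being -0.07 with centring on the 75th percentile. Such separation was found for 5 of the 8 genes and for 37.7% of all genes.

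Zfp345, Timm21 and Plekhh3 overlapped between 4OHT and untreated, with differences of -0.17, -0.26 and 0.09, and these values moved with single arrays. With each array left out in turn, the difference of Zfp345 ran from -0.42 to 0.08 and that of Plekhh3 from -0.05 to 0.22, and both turned sign without 4OHT replicate 1. That of Timm21 was -0.08 without untreated replicate 2, -0.45 without untreated replicate 1 and -0.16 without 4OHT replicate 1. The 95% intervals were wide, from -0.60 to 0.25 for Zfp345 and from -0.64 to 0.11 for Timm21.

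The agents were compared at the same dose of 1 µM. This comparison shares the Shld1 arrays with the one that chose the genes, so it is likewise a description. The Shld1 and 4OHT arrays did not overlap for 8 of the 8 genes, and for 30.5% of all genes. Neurog3 showed 4.78 ± 0.08 with Shld1 and 3.93 ± 0.01 with 4OHT, a difference of 0.85 (SE 0.14), larger than its difference from untreated. Zfp345 differed by -1.11 (SE 0.19), Nupr1l by 0.62 (SE 0.15) and Plekhh3 by 0.57 (SE 0.15). The differences of Tspear, Timm21, Rbmxl2 and Scml4 were -0.50, -0.45, 0.43 and 0.35, and that of Scml4 was 0.22 with both narrower arrays (Shld1 replicate 2 and 4OHT replicate 1) left out.

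**Figure D3:**
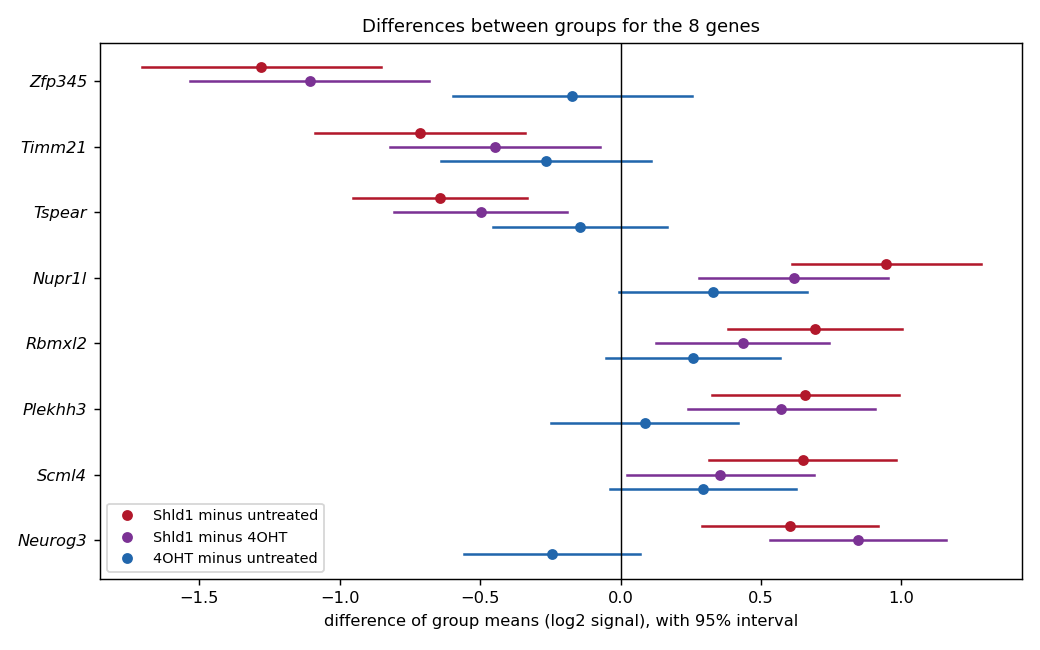
Differences of group means in log2 signal (x axis) for each gene (y axis), in red for Shld1 minus untreated, purple for Shld1 minus 4OHT and blue for 4OHT minus untreated; bars are 95% intervals from limma, not adjusted for the number of genes. All 3 colours use arrays on which the genes were chosen (Shld1, untreated or both), and Neurog3 is the gene whose blue value lies on the other side of 0 from its red one.

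Genes of the same complexes, pathways or families as the 8 were examined for the same difference, Shld1 minus untreated. Many of them are relatives and are not known to work with the gene they are set beside. None passed the adjustment over all genes (limma, adjusted p = 0.999 for each one named here), so their values are given as measured. The 8 genes were chosen for extreme values of this difference and the others were not, so the distance between them is no finding. The median difference of all genes was -0.004, with 10186 lower and 9752 higher. Beside Timm21, the 12 genes listed for the TIM23 translocase and import motor, Tomm22 included, had a median of -0.07, with 8 lower and 4 higher. Tomm22, the receptor of the outer membrane that Tim21 touches in yeast, was at 6.94 ± 0.22 with Shld1 and 7.31 ± 0.17 untreated (-0.37, SE 0.17). Grpel1, a nucleotide exchange factor of the import motor, and the channel subunit Timm17a differed by -0.28 (SE 0.15) and -0.23 (SE 0.14). With 4OHT, 12 of these 12 were lower than untreated, with a median of -0.14, against a median of -0.009 over all genes. Both the Shld1 replicate 2 mean (7.84) and the 4OHT replicate 1 mean (7.78) of this list, on the arrays with the narrowest spread, were under those of the other arrays (7.93 to 8.03).

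Beside Neurog3, the proneural and endocrine factors had a median of 0.14, with 10 of 12 higher. Neurod1, which Neurog3 activates in the pancreas, read 4.37 and 4.49 with Shld1, 3.90 and 3.86 with 4OHT, and 4.02 and 3.64 untreated. Its Shld1 arrays were above the other 4, as for Neurog3, with a difference of 0.60 (SE 0.16; limma, unadjusted p = 0.004). Untreated replicate 2 of Neurod1 lay below the low-signal level and its other arrays above it, so the size of this difference may be limited by background. Neurod1 was named for having the largest statistic of its list, so its p-value is a description only. Whether Neurog3 acts on Neurod1 in these cells was not tested. Neurod4 and Neurog2 differed by 0.29 (SE 0.20) and 0.23 (SE 0.18), both at signals below the low-signal level. Of these 12 genes, 7 lay above that level, beside 12821 of all 19938 genes. The list mean was 4.01 on Shld1 replicate 2, the array with the highest olfactory receptor median, against 3.78 on Shld1 replicate 1. Endoderm markers had a median difference of 0.17 in the same comparison, 4 of 6 higher, with list means of 4.80 and 4.82 with Shld1, 4.83 and 4.70 with 4OHT, and 4.70 and 4.63 untreated. Among them Foxa2, also a factor of the pancreas, read 4.16 and 5.10 with Shld1, 4.51 and 4.27 with 4OHT, and 4.37 and 3.68 untreated (0.61, SE 0.30). Its Shld1 and untreated arrays overlapped, and it was picked out after its value was seen, outside the rule for naming genes. The 2 lower endoderm markers were Afp, below the low-signal level (-0.34, SE 0.16), and Gata6 (-0.03, SE 0.14). Eomes, of the primitive streak and mesoderm list, read 4.24 and 4.20 with Shld1, 4.55 and 4.55 with 4OHT, and 4.46 and 4.76 untreated (-0.39, SE 0.15; limma, adjusted p = 0.999). Eomes was likewise picked out afterwards. In its list 2 genes were higher and 3 lower (median -0.03). The higher ones were Mesp1 (0.17, SE 0.18), below the low-signal level, and Hand1 (0.11, SE 0.18). The part of such cells in the values of Neurog3 was not tested.

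Beside Nupr1l, 8 of 10 measured stress and p53 partners were lower and 2 higher (median -0.06). Trp53 itself and Cdkn1a were also listed but not analysed, so these values bear little on p53. The stress factor gene Ddit3 differed by -0.32 (SE 0.16), Atf3, another stress-induced factor, by 0.30 (SE 0.17), and the acetyltransferase gene Ep300 by -0.23 (SE 0.16). The paralogue Nupr1, picked out after its value was seen, differed by -0.19 (SE 0.17), opposite in sign to Nupr1l. Beside Rbmxl2, 5 of 7 splicing partners were lower (median -0.15), among them Tra2a (-0.29, SE 0.14), Khdrbs3 (-0.19, SE 0.16) and Srsf3 (-0.18, SE 0.14). Rbmx itself, also picked out afterwards, had overlapping arrays in the 2 groups and a difference of 0.04 (SE 0.18).

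For Zfp345, co-repressors of KRAB zinc finger proteins and the zinc finger gene Zfp57 were taken. The sources used here do not say whether Zfp345 carries a KRAB domain. Of the 12, 11 were lower and 1 higher (median -0.11), with Atf7ip at -0.27 (SE 0.14), Atrx at -0.15 (SE 0.15) and Cbx1 at -0.14 (SE 0.14). Over all 19938 genes, 10186 were lower and 9752 higher. The list mean was 8.25 and 8.18 with Shld1, 8.27 and 8.39 with 4OHT, and 8.32 and 8.28 untreated. It was thus lowest on Shld1 replicate 2, the array with the narrowest spread, and next lowest on Shld1 replicate 1, the array with the widest (SD 2.35). The part of the spread in these means was not tested. The 349 other genes with a symbol beginning Zfp had a median of -0.02, with 191 lower and 158 higher. Of these, 15 lower and 10 higher had an unadjusted p under 0.05, which 1.94% and 2.41% of all genes had in those directions. Beside Scml4, the 13 polycomb-related genes had a median of 0.003. L3mbtl4, below the low-signal level, differed by 0.28 (SE 0.14), L3mbtl2 by -0.31 (SE 0.16) and Scmh1 by -0.21 (SE 0.16). Beside Plekhh3, 4 of 8 genes of a list of MyTH4 or FERM domain genes were higher and 4 lower (median -0.002). That list also holds the kinesin gene Kif1b (-0.10, SE 0.15), which is not of this family. The unconventional myosins Myo10 and Myo7b were at -0.15 (SE 0.14) and 0.14 (SE 0.15), and Plekhh1 at -0.19 (SE 0.21). Beside Tspear, 5 of 7 EPTP repeat and related genes were higher (median 0.08). Lgi1 read 2.28 and 2.77 with Shld1, 2.12 and 2.12 with 4OHT, and 1.87 and 1.68 untreated (0.75, SE 0.18), all below the low-signal level. Lgi2 and Lgi3 differed by 0.34 (SE 0.15) and -0.26 (SE 0.16).

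**Figure D4:**
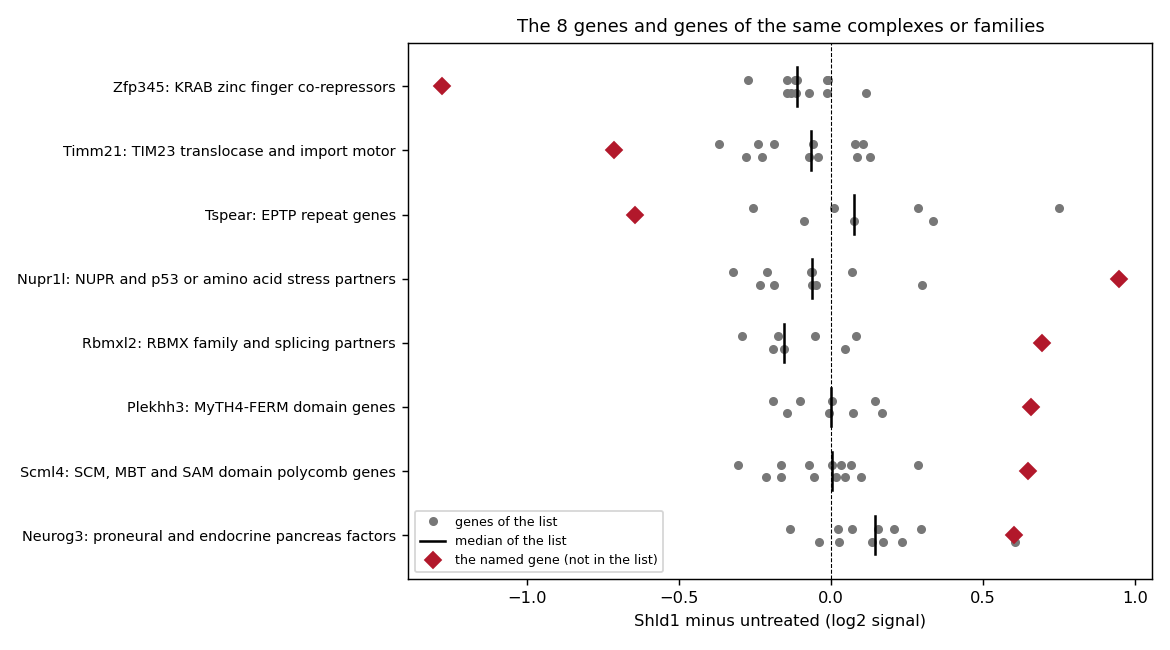
Shld1 minus untreated difference in log2 signal (x axis) for each of the 8 genes (red diamonds) and the genes of the list set beside it (grey circles, 1 per gene; black bar, list median), 1 list per row. The diamonds lie far out because the genes were chosen on this difference, and in the bottom row Neurod1 lies with Neurog3.

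Genes lying next to the 8 were set beside them. Taking the 2 nearest measured protein-coding genes on each side in RefSeq gene order gave 32 neighbours, a rule set after the data were seen. Their median difference with Shld1 was -0.04, within a range of -0.40 to 0.31. Since the members were chosen for extreme values of this difference, that the neighbours fall short of them follows from the choice. Only 12 of 32 had the sign of their member, 1 had an unadjusted p under 0.05, and 0 passed the adjustment (limma). That 1 was Apmap, on the far side of Cst7 from Zfp345, with 4.23 with Shld1 and 4.63 untreated (-0.40, SE 0.15). Zfp442, the zinc finger gene next to Zfp345, was at 3.12 with Shld1 and 3.10 untreated, both below the low-signal level. Tubg2 and Ccr10, on either side of Plekhh3, differed by -0.09 and 0.03.

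**Figure D5:**
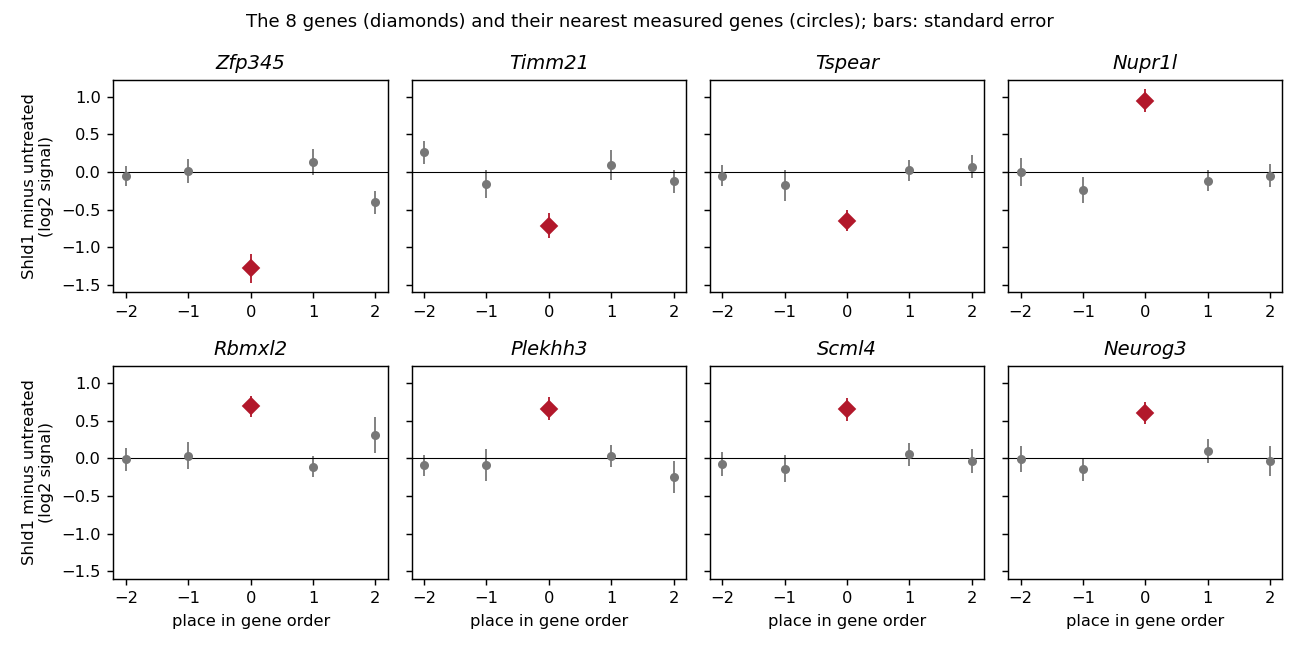
Shld1 minus untreated difference in log2 signal (y axis) for each of the 8 genes (red diamonds at place 0) and the 2 nearest measured protein-coding genes on each side (grey circles), by place in gene order (x axis); bars are standard errors. The neighbours lie between -0.40 and 0.31.

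The genes most like each of the 8 over the 6 arrays were found by Pearson's r among genes above the low-signal level and with an SD at least 0.5 times that of the member. These values are the highest of 420 to 6481 candidates and the arrays fall into 3 groups, so they are a description only. Zfp345 was most like the olfactory receptor genes Olfr986 (r = 0.986) and Olfr1510 (r = 0.949). Olfr986 had 4.46 ± 0.09 with Shld1, 5.07 ± 0.21 with 4OHT and 5.10 ± 0.07 untreated. Nupr1l was most like Fam131c (r = 0.972) and Efna1 (r = 0.962), and Plekhh3 most like Sytl1 (r = 0.989) and Efna1 (r = 0.977), the gene of the ligand ephrin A1. Timm21 was nearest to Tmem116 (r = 0.992) and Rin2 (r = 0.977), and Tspear to Spag11a (r = 0.988) and Tmem86a (r = 0.975). Neurog3 was nearest to the DNA repair gene Alkbh2 (r = 0.997) and the mitochondrial ribosomal gene Mrpl47 (r = 0.984), both lowest with 4OHT. Rbmxl2 was nearest to the testis linker histone gene H1f6 (r = 0.973) and Myf6 (r = 0.968), and Scml4 to Mir194-1 (r = 0.972) and Alpi (r = 0.967).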

How the data were processed

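Affymetrix arrays of 3 groups of 2 were analysed from 1 table. The deposited values, 1 per probe set and array (35556 probe sets), span a range that fits a log2 scale. Background correction, summarization and normalization are not given in the sources used here; per the submitters' processing notes, limma 3.14 was among the tools. Each array is 1 sample, and the number of arrays limits the precision.

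Probe sets with exactly 1 symbol in the platform annotation (21789; 1621 had several and 12146 none) were named, 21698 of them updated by Entrez identifier. The brightest probe set stood for a gene, giving 19938 genes. Limma 3.58.1 in R 4.3.3 fitted a mean per group over all 6 arrays, with moderation and two-sided tests adjusted by Benjamini-Hochberg over all genes (3 residual degrees of freedom, 6.77 added); a gene passed at an adjusted p under 0.05. The median standard error of a difference was 0.16. The steps were tested on simulated data. Exact tests of 2 arrays against 2 cannot reach significance and were not used.

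Members and lists were chosen with earlier results of these data known. The named genes are the members, up to 3 genes per list with the largest statistic in Shld1 against untreated, 2 likeness genes per member, and Pou5f1, Sox2, Nanog and Fkbp1a as checks; Fkbp1a, the source of the FKBP domain, was at 7.86 with Shld1 and 7.90 untreated. No protein sequences were used here. Genes of the lists without a probe set of 1 symbol were not analysed here. Gene order came from GRCm38.p6, and no build is named for the array. Alternatives covered normalization, moderation, filters, probe sets, the replicate block and left-out arrays.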

Additional observations from a re-analysis of the deposited data

How the results depend on the processing

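The number of genes called stayed at 0 in Shld1 against untreated and in 4OHT against untreated under 15 alternatives each (normalization, moderation, groups in the fit, a filter, averaged probe sets, the replicate block and left-out arrays). In Shld1 against 4OHT it was 0 under 14 and 1 with an intensity trend, Snora62 (-1.31, limma adjusted p = 0.0304). Where both arrays of each compared group were kept, the smallest adjusted p of any gene (limma) otherwise ran from 0.2386 (replicate block) to 0.9944 (centring on the 75th percentile). With the replicate block, the unadjusted p was under 0.05 for 748, 785 and 968 genes, against 866, 995 and 1117 without it; deviations of same-numbered arrays correlated at -0.0789, 0.0496 and -0.194, so the numbers were not taken to pair the arrays. These unadjusted counts ranged from 469 (dimmest 40% left out, fewer genes tested) to 2680 (without Shld1 replicate 1), from 518 (without untreated replicate 2) to 1634 (without 4OHT replicate 2), and from 707 (without 4OHT replicate 1) to 2270 (without Shld1 replicate 1). A lone array left in a group is assumed to vary like the others.

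Shld1 minus untreated kept its sign for the 8 genes under every alternative run. Their Shld1 and untreated arrays did not overlap, which came with the choice of genes, so leaving out 1 array could not turn the sign. Several other settings leave the difference unchanged, so the kept sign is no test of it. The difference ranged from -1.44 to -1.12 for Zfp345, from 0.82 to 1.07 for Nupr1l, and from -0.90 (without untreated replicate 1) to -0.53 (without untreated replicate 2) for Timm21. With the filter on dim genes Zfp345, Scml4 and Tspear have no value. Cyclic loess and leaving out both narrower arrays were added after seeing the data. 4OHT minus untreated turned sign for Zfp345 (range without 1 array -0.419 to 0.075) and Plekhh3 (-0.047 to 0.218) without 4OHT replicate 1, also with Shld1 replicate 2 left out too (0.075 and -0.047); the cause was not tested. With the median of all genes as low-signal level, 5 genes lay above it with Shld1, 3 with 4OHT and 3 untreated, against 6, 8 and 7. With the 95th percentile of 167 vomeronasal receptor genes, 3.11, the counts were 7, 8 and 8. Tspear with Shld1 (mean 3.42) and Scml4 untreated (3.59) lay above that lower level, and Zfp345 with Shld1 (2.79) below it. Their background limits thus depend on the level chosen, except that of Zfp345 at these levels.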
